A study of Mus musculus with 6 samples.

Results

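Sst, Npy, Cck, Vip, Penk, Pdyn, Tac1, Calb1, Calb2 and Pvalb are 7 neuropeptide genes and 3 genes for calcium-binding proteins that mark classes of GABAergic neurons. These 10 genes were chosen by name, were all found among the 33084 genes of the deposited count table, and were followed through all 6 libraries. The libraries are RNA-seq of mouse forebrain taken at embryonic day 15.5 from 3 mutants of the genotype Dyrk1a<DlxCre/+> and 3 wild-type (wt) controls. In the mutants Dyrk1a, which encodes a kinase of neuronal development, is inactivated conditionally in the Dlx5 domain, so cells outside that domain keep their alleles. The genotype is written with a + allele, the notation of a heterozygote that keeps a wild-type allele inside that domain too. The labels do not say whether the wt controls carry the Cre driver or the conditional allele, whether animals were pooled, or which litters the embryos came from. The p-values therefore measure the spread between these libraries.

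GABAergic interneurons of the cortex and striatum are born in the ganglionic eminences of the ventral forebrain and migrate from there. Their classes are told apart by neuropeptides, which are cut from longer precursors and released from dense-core vesicles to act on G-protein-coupled receptors, and by EF-hand proteins that buffer calcium. Somatostatin (Sst) and parvalbumin (Pvalb) classes come mainly from the medial eminence, and Vip cells and many calretinin (Calb2) cells from the caudal eminence. In the striatum, projection neurons of the direct pathway carry Tac1 and Pdyn and those of the indirect pathway carry Penk. Several markers also mark cells outside the GABAergic lineage: Calb2 is made by Cajal-Retzius cells and Cck by many pyramidal neurons. Pvalb and Vip reach their adult pattern mostly after birth.

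Library totals ran from 24646616 to 38315004 counts. The 10 genes together held between 0.00559% and 0.00854% of the counts of a library, with between 34 and 866 counts per library for each of the 8 genes that passed the filter on low counts. Dyrk1a had 186, 159 and 182 CPM (counts-per-million, TMM-scaled) in mutants and 169, 183 and 180 CPM in controls, a log2 fold change of -0.02 ± 0.09 (SE); the count spans the whole gene, so it does not check the genotype. Genes shared by GABAergic forebrain neurons summed to between 612 and 632 CPM in mutants and between 585 and 660 CPM in controls. Thalamic and hypothalamic genes summed to between 134 and 165 CPM in mutants and between 146 and 162 CPM in controls. The replicate 3 libraries of both genotypes stood apart from the others on the first principal component, which held 37.4% of the variance. There, the median difference from replicates 1 and 2 was 0.69 (mutant) and 0.70 (control) log2 units over 10 genes of cycling progenitors, and -0.48 (mutant) and -0.42 (control) over 12 genes of maturing neurons. On the same scale the embryonic globin gene Hbb-y had 3.07 in mutants and 3.22 in controls. Hbb-bh1 had 1.88 in mutants and 2.51 in controls, and Hba-x had 1.68 in mutants and 1.76 in controls. Of the 9 red blood cell genes listed, 4 were higher in replicate 3 in both genotypes and 5 were lower in both. Their medians were -0.0006 in mutants and -0.25 in controls.

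Short stretches of gene starts are shown for the genes in which a cyclic AMP response element (CRE) or a part of it was found, since the CRE of Sst is the textbook site of the activity-regulated factor CREB. RefSeq windows (GRCm38.p6) from 250 bases before to 50 after the start were held for 7 of the 10 genes. The letters searched, on both strands, were TGACGTCA, its shared part TGACG, and the variant TGCGTCA, whose other strand also holds TGACG. Capitals mark the match.
Sst (chr16:23890874-23890903, minus strand): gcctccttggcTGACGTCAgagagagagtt
Cck (chr9:121495725-121495754, minus strand): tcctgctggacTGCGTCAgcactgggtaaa
Tac1 (chr6:7554851-7554880, plus strand): ttccctaaaatTGCGTCAtttcgaacacaa
Vip (chr10:5639127-5639156, plus strand): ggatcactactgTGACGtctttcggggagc
The full palindrome was found in 1 of the 7 genes, Sst, and in 2.03% of 27025 genes with such a window. The variant was found in Cck and Tac1 and in 2.42% of genes, and the short part in 4 of the 7 and in 23.0% of genes. A match describes the letters of the window and is not a measured site.

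Averaged over both genotypes, Sst was the most abundant of the 10 genes per length. On the scale of CPM per kilobase of exon, averaged over the 6 libraries, Sst stood at 15.2, Calb2 at 13.6 and Npy at 9.75. Below them came Calb1 at 2.97, Cck at 2.91 and Tac1 at 2.32, and then Penk at 1.30 and Pdyn at 1.20. Pvalb stood at 0.0329 and Vip at 0. The ranges over the 6 libraries overlapped between all neighbours in this order except between Npy and Calb1 and between Pdyn and Pvalb. Sst lay above Calb2 in 5 of 6 libraries, and Calb2 above Npy in 6 of 6.

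**Figure D1:**
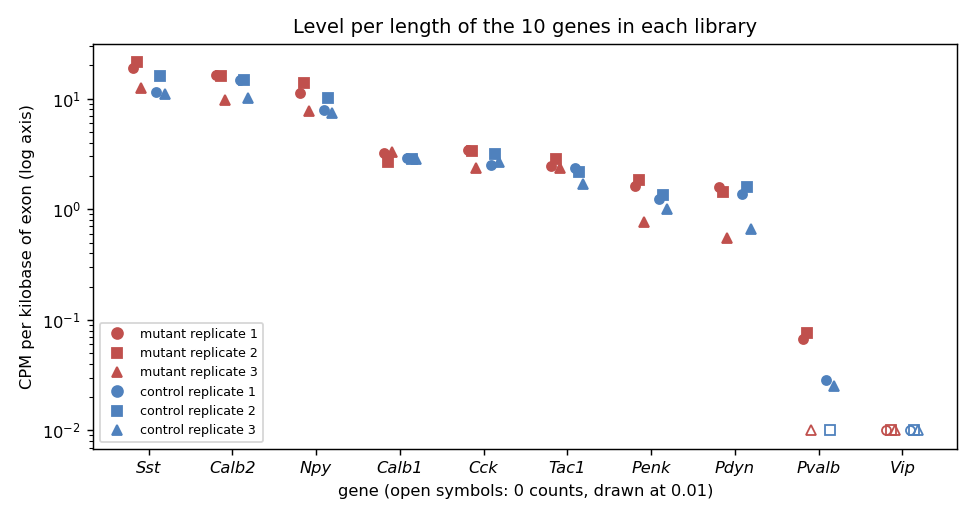
CPM per kilobase of exon (log axis) of the 10 genes in each library, mutants left of controls for each gene, with circles, squares and triangles for replicates 1, 2 and 3. Sst, Calb2 and Npy lie between 7.45 and 21.3, and Vip has 0 counts in all 6 libraries.

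No member passed the threshold for a difference between genotypes. Of the 10 genes, 8 had enough counts to be tested; 7 of these 8 had a fitted log2 fold change above 0, and their median was 0.19. Over all 19616 tested genes, 47.5% lay above 0 and the median was -0.01. At an adjusted p under 0.05, the quasi-likelihood test of edgeR called 0 of the 8 members, each with a Benjamini-Hochberg adjusted p = 0.9999, and 0% of all tested genes. At an unadjusted p under 0.05 there were 0 members and 1.92% of all genes. DESeq2 called 0 members too, with Sst at an unadjusted p = 0.0435. The whole-forebrain count cannot tell fewer cells of a type from less RNA per cell.

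**Figure D2:**
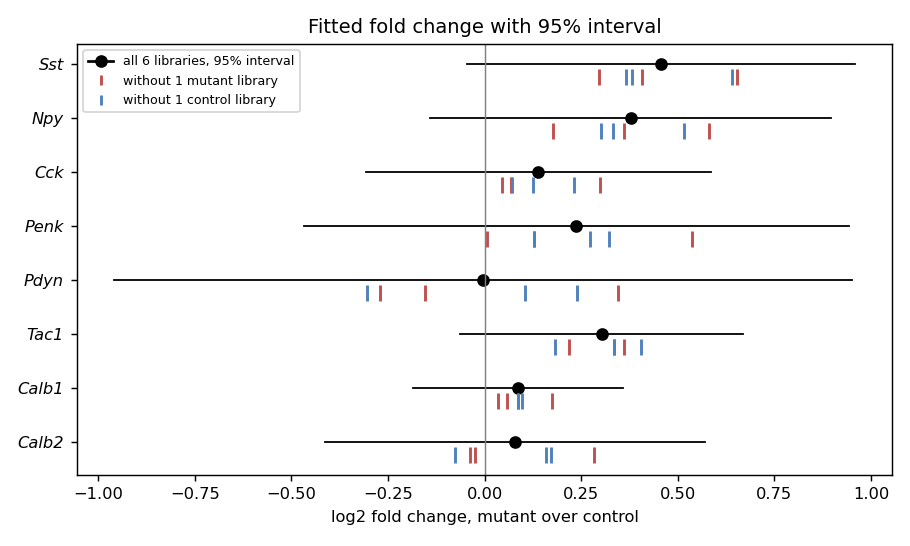
Fitted log2 fold change (mutant over control) of the 8 tested members, with dots for the fit of all 6 libraries, lines for the 95% interval, and ticks for fits without 1 library. Every interval includes 0, and the ticks of Pdyn and Calb2 fall on both sides of 0.

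Sst (ENSMUSG00000004366, chromosome 16, 23889573 to 23890958 on GRCm38, reverse strand) encodes the precursor of somatostatin, an inhibitory peptide. It had 387, 390 and 245 counts in mutant replicates 1, 2 and 3, against 276, 285 and 302 in controls. Scaled to library size these were 13.6, 15.4 and 9.03 CPM in mutants and 8.27, 11.6 and 7.96 CPM in controls. Mutant replicates 1 and 2 lay above every control library, and mutant replicate 3 lay below control replicate 2, so the groups overlapped. The means were 12.7 ± 3.26 CPM in mutants and 9.26 ± 1.99 CPM in controls (SD, n = 3 each). The fitted fold was 1.37, with a 95% interval from 0.968 to 1.94, and a log2 fold change of 0.46 ± 0.22 (SE). It was the member with the smallest p (unadjusted p = 0.0702, edgeR's quasi-likelihood test), and the difference was 0.56 log2 units within replicates 1 and 2 and 0.18 within replicate 3.

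Npy (ENSMUSG00000029819, chromosome 6, 49822710 to 49829507, forward strand) encodes neuropeptide Y, which many Sst interneurons also make. Its libraries held 6.43, 7.87 and 4.39 CPM in mutants and 4.50, 5.72 and 4.22 CPM in controls. As with Sst, mutant replicates 1 and 2 lay above every control and mutant replicate 3 lay among the controls. The log2 fold change was 0.38 ± 0.23 (SE), with an interval from -0.14 to 0.90. Npy counts were between 47.3% and 54.3% of Sst counts in every library, so these genes kept nearly the same proportion while each varied. The log2 ratio of Npy to Sst counts was -1.02 ± 0.06 in mutants and -0.93 ± 0.07 in controls (SD, n = 3 each), a difference of -0.09 (p = 0.20, two-sided exact permutation test over 20 assignments, where 0.10 is the smallest p; 0.60 after Benjamini-Hochberg adjustment over the 4 ratios computed).

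Lhx6, the transcription factor that marks medial eminence interneurons, had 51.4 ± 2.96 CPM in mutants and 48.9 ± 6.16 CPM in controls, a log2 fold change of 0.07 ± 0.11 (SE). The log2 ratio of Sst to Lhx6 counts was -1.91, -1.82 and -2.42 in mutants and -2.36, -2.24 and -2.63 in controls. Mutant replicates 1 and 2 had more Sst per Lhx6 than any control, and mutant replicate 3 had less than control replicates 1 and 2. The difference of 0.36 was not separated from the spread (p = 0.30, two-sided exact permutation test; adjusted p = 0.60), and was 0.54 without mutant replicate 3 and 0.24 without mutant replicate 2.

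Cck (ENSMUSG00000032532, chromosome 9, 121489824 to 121495694, reverse strand) encodes cholecystokinin, a peptide of a basket cell class and of pyramidal neurons. It stood at 4.50, 4.37 and 3.06 CPM in mutants and 3.27, 4.09 and 3.51 CPM in controls. The lowest library was mutant replicate 3, and the log2 fold change was 0.14 ± 0.20 (SE), or 0.30 without that library. Vip (ENSMUSG00000019772, chromosome 10, 5639218 to 5647617, forward strand), vasoactive intestinal peptide of late-maturing caudal eminence interneurons, had 0 counts in all 6 libraries. A count of 0 allows up to 0.118 CPM in mutants and up to 0.122 CPM in controls in the shallowest library of each group, by the limit of 3 counts, which covers counting error only. Its receptor genes Vipr1 and Vipr2 were measured all the same, at 1.93 and 2.26 CPM on average in mutants and 2.12 and 2.41 CPM in controls.

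Among the striatal peptides, Penk (ENSMUSG00000045573, chromosome 4, 4133531 to 4138819, reverse strand), the enkephalin precursor, had 75, 76 and 34 counts in mutants and 68, 54 and 62 in controls. These were 2.64, 2.99 and 1.25 CPM in mutants and 2.04, 2.19 and 1.63 CPM in controls, so the mutants held both the highest and the lowest libraries. The log2 fold change was 0.24 ± 0.31 (SE). Penk overlaps A830012C17Rik on the opposite strand, which had between 2 and 9 counts per library; whether the counting used strand is not stated in the labels.

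Pdyn (ENSMUSG00000027400, chromosome 2, 129686565 to 129699844, reverse strand), the dynorphin precursor, stood at 4.61, 4.13 and 1.59 CPM in mutants and 3.96, 4.62 and 1.90 CPM in controls. The replicate 3 libraries of both genotypes were lowest, and the other 4 overlapped. Its log2 fold change was -0.0044 from all 6 libraries, with the widest interval of the members, from -0.96 to 0.95. Tac1 (ENSMUSG00000061762, chromosome 6, 7554879 to 7565834, forward strand), the precursor of substance P, had 8.37, 9.69 and 8.04 CPM in mutants and 8.00, 7.38 and 5.80 CPM in controls.

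For Tac1 the 3 mutant libraries lay above the 3 controls, by a margin of 8.04 against 8.00 CPM. It was the 1 tested member of 8 with groups that did not overlap, where 3.19% of all tested genes lay wholly above and 3.7% wholly below. The means were 8.70 ± 0.87 CPM in mutants and 7.06 ± 1.14 CPM in controls (SD, n = 3 each), and the fitted fold was 1.23, with a 95% interval from 0.956 to 1.59 (unadjusted p = 0.0949, edgeR's quasi-likelihood test). The log2 ratio of Penk to Tac1 counts was -1.65, -1.68 and -2.65 in mutants and -1.96, -1.73 and -1.81 in controls. Mutant replicate 3 alone stood apart, and the mean difference of -0.16 gave p = 1.0 (two-sided exact permutation test; adjusted p = 1.0).

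Among calcium-binding genes, Calb1 (ENSMUSG00000028222, chromosome 4, 15881264 to 15908064, forward strand) encodes calbindin, an EF-hand buffer of many neuron classes. It was the steadiest member in controls, with 14.2, 13.9 and 13.8 CPM, against 15.5, 13.0 and 16.0 CPM in mutants. The mutants lay on both sides of the controls, and the log2 fold change was 0.09 ± 0.12 (SE), with an interval from -0.18 to 0.36. Calb2 (ENSMUSG00000003657, chromosome 8, 110137502 to 110168210, reverse strand) encodes calretinin and had 28.3, 27.8 and 17.0 CPM in mutants and 26.0, 25.7 and 17.7 CPM in controls. Here the replicate 3 libraries of both genotypes were lowest, and the genotypes differed by 0.08 ± 0.22 (log2 fold change, SE).

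Reln, the secreted protein of Cajal-Retzius cells and of some interneurons, stood at 835 ± 84.8 CPM in mutants and 834 ± 63.7 CPM in controls (SD, n = 3 each). The log2 ratio of Calb2 to Reln counts was -5.13 ± 0.26 in mutants and -5.19 ± 0.26 in controls, a difference of 0.06 (p = 0.60, two-sided exact permutation test; adjusted p = 0.80). Pvalb (ENSMUSG00000005716, chromosome 15, 78191114 to 78206400, reverse strand), parvalbumin of fast-spiking interneurons, had 2, 2 and 0 counts in mutants and 1, 0 and 1 in controls. These counts are under the limit of 3 per library that a count of 0 allows, and no fold change is given.

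**Figure D3:**
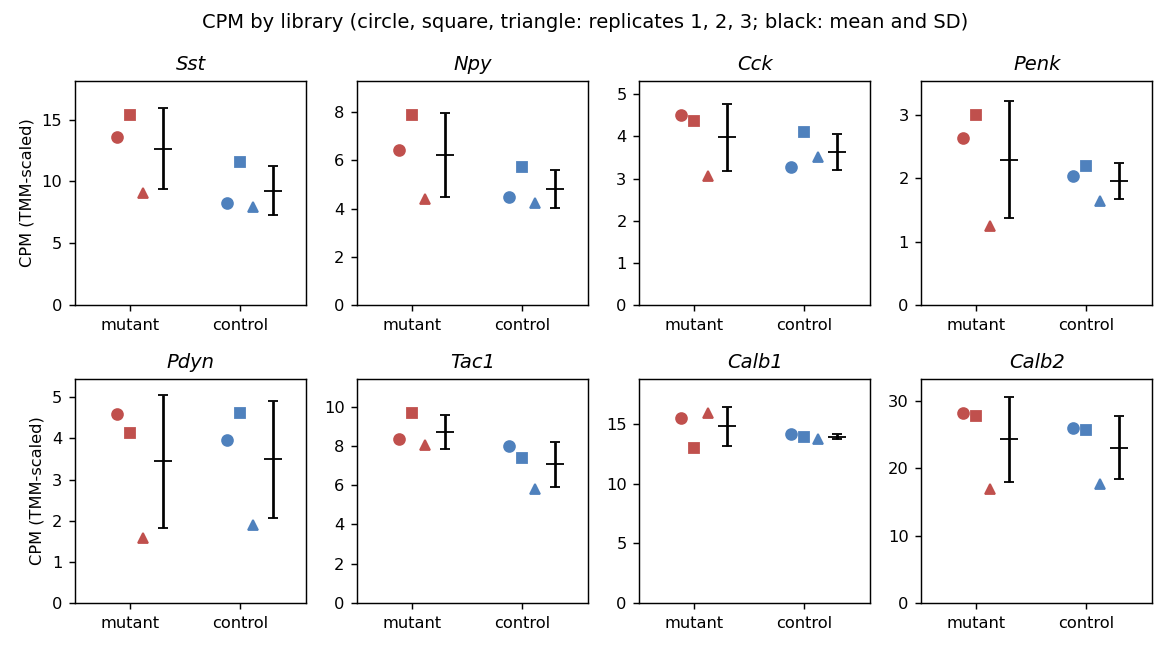
CPM of the 8 tested members in each library, mutants left of controls, with circles, squares and triangles for replicates 1, 2 and 3 and black bars for the mean and SD of each group. The triangle is the lowest mutant library for every gene but Calb1.

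For most members the replicate 3 libraries of both genotypes were the low ones. In 7 of the 8 tested members, replicate 3 lay below the mean of replicates 1 and 2 in both genotypes, as 31.1% of all tested genes did. The median difference over the members was -0.68 (mutant) and -0.33 (control) log2 units, against 0.01 in both genotypes over all tested genes. Related lists had low medians too. Peptide processing genes had -0.40 (mutant) and -0.13 (control), with 11 of 13 lower in both genotypes. Other neuropeptides had -0.57 and -0.11, with 9 of 15 lower and 4 higher in both. Other EF-hand genes had -0.27 and -0.07, with 12 of 21 lower and 3 higher in both. Pdyn moved most, by -1.42 in mutants and -1.14 in controls. Penk had -1.12 in mutants and -0.36 in controls, and Calb2 -0.72 in mutants and -0.55 in controls. Npy had -0.69 in mutants and -0.26 in controls, and Sst -0.67 in mutants and -0.29 in controls. Cck had -0.53 in mutants and -0.06 in controls, and Tac1 had -0.16 in mutants and -0.40 in controls, the larger difference in controls. Calb1 had 0.17 in mutants and -0.03 in controls.

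Genes of striatal projection neurons had in the same libraries a median over 14 genes of -0.32 in mutants and -0.34 in controls. Drd1 and Drd2, the dopamine receptors of the direct and indirect pathway, had -0.94 and -1.06 in mutants and -0.74 and -0.98 in controls, the lowest values of the list. Of the 14 genes, 9 lay lower in replicate 3 in both genotypes and 2 higher in both, Isl1 (0.50 in mutants and 0.14 in controls) and Meis2 (0.17 in mutants and 0.06 in controls). The 9 shared GABAergic genes had medians of -0.03 in mutants and 0.11 in controls. Within replicates 1 and 2, 8 of the 8 tested members were higher in mutants on average, with Calb1 at only 0.015 and Pdyn at 0.029 log2 units. Within replicate 3, which is 1 mutant library against 1 control library, 4 of 8 were higher. The same shares over all tested genes were not computed. The part of the progenitor, neuronal and embryonic globin shift of replicate 3 in the genotype differences was not tested.

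**Figure D4:**
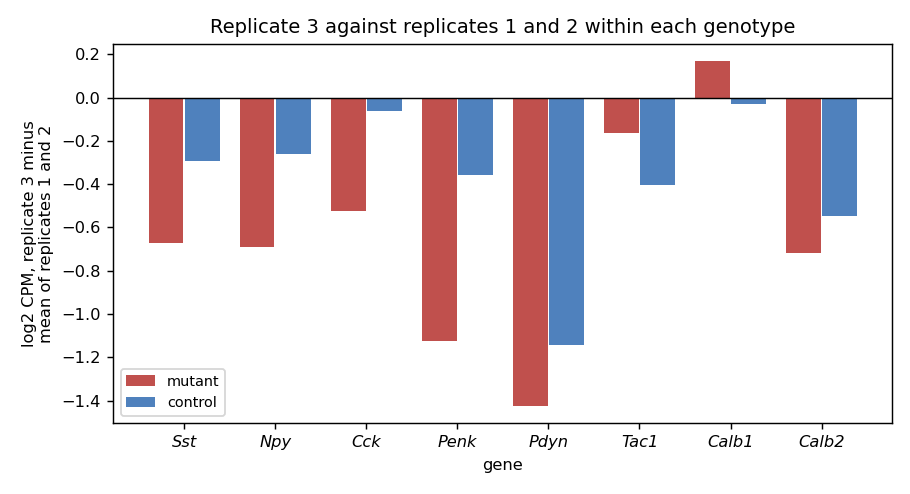
Difference in log2 CPM between replicate 3 and the mean of replicates 1 and 2, within mutants (left bar) and within controls (right bar), for the 8 tested members. The bars run from -1.42 (Pdyn, mutant) to 0.17 (Calb1, mutant), with 7 of the 8 genes below 0 in both genotypes.

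Receptor genes of the 7 peptides and of related peptides showed no common direction. Of 20, 17 were tested, 7 with a log2 fold change above 0 and 10 below, with a median of -0.02 and 0 past the threshold in either direction. Sstr2 was the most abundant per length, at 20.8 CPM per kilobase, and Adcyap1r1, the PACAP receptor, stood at 19.0. Sstr2 differed by 0.01 between genotypes (log2 fold change). The smallest unadjusted p belonged to Tacr1, the substance P receptor, at -0.31 ± 0.17 (log2 fold change, SE). It had 2.96 ± 0.30 CPM in mutants and 3.66 ± 0.33 CPM in controls (SD, n = 3 each), with every mutant library below every control. Next were the somatostatin receptors Sstr3, at -0.28 ± 0.17, and Sstr1, at 0.34 ± 0.22, and the neurokinin B receptor Tacr3, at 0.35 ± 0.35.

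The machinery that cuts, amidates and packs peptides was tested in 13 of 13 genes, 11 above 0 and 2 below, with a median of 0.07 and 0 past the threshold. Pcsk1n, the inhibitor of prohormone convertase 1, had 19.9, 22.6 and 13.1 CPM in mutants and 5.57, 17.2 and 9.72 CPM in controls. Its log2 fold change of 0.79 ± 0.36 (SE) was the largest of the group, and the groups overlapped. The convertase gene Pcsk1 had 0.23 ± 0.18, and the granin genes Scg3 and Chga had 0.17 ± 0.11 and 0.17 ± 0.15. Cpe, the carboxypeptidase that trims the cut peptides, was at 230 CPM in mutants and 232 CPM in controls.

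Other neuropeptide genes of the forebrain were fewer past the filter on low counts. Of 23 listed, 15 were tested, 12 above 0 and 3 below, with a median of 0.25 and 0 past the threshold. Trh had 0.47 ± 0.25, Adcyap1 0.25 ± 0.14, Cartpt 0.64 ± 0.38 and Avp 0.94 ± 0.60 (log2 fold change, SE). Cartpt and Avp had few counts, 130 and 89 over all libraries. Adcyap1, which encodes PACAP, stood at 7.28, 6.81 and 6.20 CPM in mutants and 5.99, 5.67 and 5.35 CPM in controls, without overlap. Pmch, a peptide of the lateral hypothalamus, held 2.49 ± 0.53 CPM in mutants and 2.16 ± 0.26 CPM in controls (SD, n = 3 each).

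Other EF-hand genes were tested in 21 of 23 cases, 14 above 0 and 7 below, with a median of 0.05 and 0 past the threshold. Necab2, a neuronal calcium-binding protein, had 17.1, 16.1 and 16.2 CPM in mutants and 13.1, 12.8 and 15.2 CPM in controls, without overlap. Its log2 fold change was 0.27 ± 0.12 (SE; unadjusted p = 0.0468 and adjusted p = 0.9999, edgeR's quasi-likelihood test). Kcnip3 had 0.17 ± 0.10 and Scgn 0.46 ± 0.37 (log2 fold change, SE). Scgn had few counts, 91 over all libraries.

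The lists for lineages that carry the markers had medians within 0.10 log2 units of 0. For medial eminence interneurons 7 of 13 tested genes lay above 0 (median 0.05), with Lhx8 at 0.21 ± 0.14, Ackr3 at -0.13 ± 0.09, Satb1 at -0.16 ± 0.11 and Zeb2 at -0.13 ± 0.11 (log2 fold change, SE). For caudal eminence interneurons it was 4 of 9 (median -0.03), with Sp9 at 0.33 ± 0.19, Prox1 at -0.18 ± 0.13, Npas3 at 0.09 ± 0.09 and Nr2f1 at 0.10 ± 0.10. The shared GABAergic genes had 8 of 9 above 0 (median 0.04), with Slc32a1 at 0.16 ± 0.18 and Dlx6 at 0.10 ± 0.14. Striatal projection neuron genes had 11 of 14 (median 0.05), with Bcl11b at 0.15 ± 0.10, Isl1 at 0.22 ± 0.14 and Ikzf1 at 0.19 ± 0.27. Cajal-Retzius genes had 6 of 7 (median 0.03), with Lhx5, which diencephalic neurons also make, at 0.33 ± 0.17, Lhx1 at 0.13 ± 0.13, Ebf3 at 0.03 ± 0.12 and Ndnf at 0.04 ± 0.19. Diencephalic genes had 9 of 14 (median 0.10), with Irx1 at 0.54 ± 0.23, Irx2 at 0.44 ± 0.22, Foxb1 at 0.35 ± 0.23 and Nkx2-2 at 0.24 ± 0.25. In these lists 0 genes passed the threshold, and none of their genes had 0 counts in every library. For Ackr3 every mutant library lay below every control. Irx1 had an unadjusted p = 0.0409 and an adjusted p = 0.9999 (edgeR's quasi-likelihood test), and its groups overlapped.

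Summed levels overlapped between genotypes for each of these lists. Medial eminence genes summed to between 1085 and 1166 CPM in mutants and between 1103 and 1269 CPM in controls. Of this, Zeb2 held 482 CPM on average in mutants and 528 CPM in controls. Striatal genes summed to between 1061 and 1162 CPM in mutants and between 1037 and 1194 CPM in controls. Of this, Meis2 held 336 CPM on average in mutants and 345 CPM in controls, and Bcl11b 336 and 303 CPM. The sums therefore follow their most abundant genes more than the narrower markers. Genes of cycling progenitors had 10 of 10 above 0 (median 0.07), those of maturing neurons 3 of 12 (median -0.05) and those of red blood cells 6 of 9 (median 0.04), again with 0 past the threshold.

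**Figure D5:**
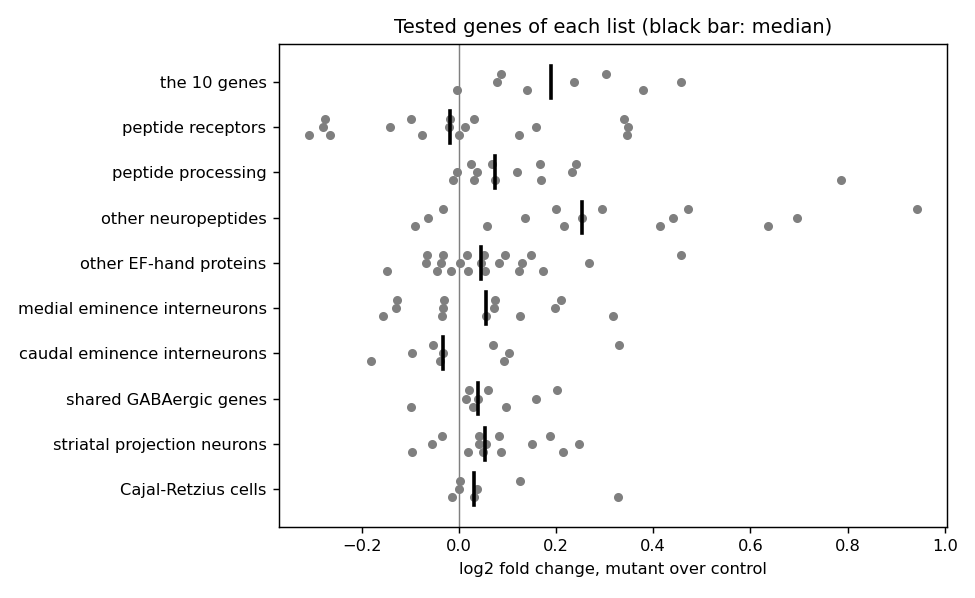
Log2 fold change (mutant over control) of every tested gene of 10 lists, 1 dot per gene, with a black bar at each list's median. The medians run from -0.03 (caudal eminence interneurons) to 0.25 (other neuropeptides), and 0 of the genes pass the threshold.

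For each tested member, the genes with the most similar course over the 6 libraries were found by the mean absolute difference of centred log2 CPM, among 16748 tested genes averaging at least 1 CPM. Sst was nearest to Dlgap3, a postsynaptic scaffold gene, at 0.05 log2 units, followed by Dtx1 and Abhd3, both at 0.06. Npy was nearest to Apoe, at 0.04, and also had Dlgap3 among its nearest 3, at 0.05. Penk was nearest to Doc2a, at 0.04, followed by Plcd3 and 1500015O10Rik, both at 0.07. Cck was nearest to Rab3a, at 0.04, followed by Tbx15 and Ccn2, both at 0.05. A close course over 6 libraries does not show a shared function. Pdyn was nearest to the EF-hand genes Caln1 (0.06) and Vsnl1 (0.09) and the glutamate receptor gene Grm3 (0.09), which share its low replicate 3 libraries. Calb2 was nearest to Slco1c1, Rac3 and Adora2a, at 0.03, 0.03 and 0.04, Tac1 to Ushbp1 at 0.06, and Calb1 to Zfp948 and Utp18, both at 0.02.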

How the data were processed

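The deposited table holds whole-number read counts for each gene, with no normalization and 1 column per library. Per the labels' protocols, libraries came from a stranded total RNA kit with ribosomal RNA removal, sequenced single-end, although the molecule is given as polyA RNA. HISAT2 on GRCm38, SAMtools 1.9 and HTSeq 0.9.1 were used, per the submitters' processing notes; no label gives the strand setting of the counting. GENCODE M21 gave symbols for 32888 of 33084 identifiers, coordinates and union exon lengths.

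Counts were analysed with edgeR 4.0.16 (filterByExpr, count minimum 10 and total minimum 15, 19616 genes kept; TMM; robust quasi-likelihood F test, no covariate; Benjamini-Hochberg adjustment over all tested genes, threshold 0.05) in R 4.3.3. DESeq2 1.42.0 and limma 3.58.1 gave alternatives. Log2 CPM used a prior count of 2, and within-library ratios a pseudocount of 1. The scripts were tested on simulated data. There the edgeR test called 77% of 100 genes changed 2-fold and 31% of 100 genes changed 1.5-fold, so smaller differences can be missed. Named genes are the 10 members, Dyrk1a, the 4 genes of each list with the smallest p, except lists of progenitors, maturing neurons and red cells, Lhx6 and Reln for the ratios, and nearest genes by course, with some of these genes not reported here; Sstr2, Adcyap1r1, Vipr1, Vipr2, Cpe, Pmch, Drd1, Drd2, Meis2 and the embryonic globins were added after their values were seen. Overlapping genes were looked up for the 10 members. The members and lists were chosen with earlier results of these data known.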

Additional observations from a re-analysis of the deposited data

How the results depend on the processing

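Over 13 alternative settings, 104 other fits of the 8 tested members gave 0 calls; the smallest adjusted p of a member was 0.386 (limma-voom with sample weights, Sst). The number of called genes was 0 in all settings but 1: with only replicates 1 and 2 it was 3 (Hist1h2ag, Pisd-ps1 and Tmem181b-ps, named after their values were seen). Genes at an unadjusted p under 0.05 numbered 376, against 587 with no filter, 1909 with sample weights, 1544 with only replicates 1 and 2, 765 with a replicate block, and between 179 and 1060 when leaving out 1 library.

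Sst ranged from 0.30 (without mutant replicate 2) to 0.65 (without mutant replicate 3) and Npy from 0.18 to 0.58 in the same 2 fits (log2 fold change). The unadjusted p of Sst was 0.0380 with no filter (edgeR) and 0.00435 with sample weights (limma-voom). In edgeR it was 0.00299 with only replicates 1 and 2, 0.00570 without mutant replicate 3 and 0.0239 without control replicate 2. It was above 0.05 with DESeq2 size factors, in unweighted limma-voom, and without mutant replicate 1, mutant replicate 2, control replicate 1 or control replicate 3. Leaving out 1 library, Cck ranged from 0.045 to 0.30 (0.31 with sample weights), Penk ranged from 0.01 to 0.54, Tac1 from 0.18 to 0.40, Pdyn from -0.30 to 0.35 and Calb2 from -0.076 to 0.28. Pdyn changed sign with sample weights (0.045) and with only replicates 1 and 2 (0.039). The Penk to Tac1 difference changed sign with only replicates 1 and 2 (0.18) and ran from -0.33 to 0.17 leaving out 1 library. That of Sst to Lhx6 ran from 0.24 to 0.54, and that of Calb2 to Reln from -0.083 to 0.21. Without mutant replicate 3, Sst to Lhx6 had p = 0.10 (exact permutation test), the smallest p possible with the libraries left. The cause of these changes was not tested.

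The numbers shared by the groups were not taken as pairs: deviations of same-numbered libraries correlated at 0.24, 0.07 and 0.36, and mutant replicate 1 correlated more with control replicate 2 (0.35). With a replicate block Sst was at 0.44 (unadjusted p = 0.00734), Npy at 0.35 (unadjusted p = 0.0418) and Tac1 at 0.31 (unadjusted p = 0.0437), with adjusted p = 0.987 for each (edgeR), and 0 genes were called. Penk had the fewest counts of the tested members, 369 over the 6 libraries.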
